A study of Mus musculus with 48 samples.

Results

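The axon guidance ligands and receptors described here are the ephrins and their Eph receptors, the semaphorins with their plexin and neuropilin receptors, the Slits with their Robo receptors, and netrin-1 with Dcc and the Unc5 receptors. They were taken by symbol from the protein-coding genes of the mouse genome annotation mm9 (NCBIM37), which gave 68 of 22238 gene symbols: 8 ephrins, 14 Eph receptors, 20 semaphorins, 9 plexins, 2 neuropilins, 3 Slits, 4 Robos, 1 netrin and 5 netrin receptors. The last 2 symbols, Unc50 and Unc5cl, share the letters of the Unc5 receptors but are not netrin receptors, and they are kept only because the rule takes them. The data are m6A-IP (MeRIP-seq) peaks, that is stretches of RNA recovered with an antibody against N6-methyladenosine (m6A) beyond the input of the same animal. When the peaks of 24 animals were joined where they overlap, 685 of 81807 common regions had their middle summit on one of these genes, and 63241 lay on any protein-coding gene.

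The RNA came from hippocampi of male WT mice and of heterozygous Hdh+/Q111 knock-in (KI) mice, a model of Huntington's disease that carries an expanded CAG repeat in its own huntingtin gene, both on a C57BL/6 background. Mice aged 5 or 8 months were either naive or had been trained 30 min earlier in a test of spatial memory, the object location task. This gives 8 conditions, naive and trained WT and KI mice of each age, with 3 animals per condition, an m6A-IP and an input library for each animal, 48 libraries in all, and no animal in more than 1 condition. Every cell of the KI animals carries the allele from the germ line, so the comparison of KI with WT is not limited to a cell type. The tissue is bulk hippocampus, in which fewer cells of a type and less RNA per cell cannot be told apart. Peaks were called against the input of the same animal, but differences between groups were not set beside differences in the amount of the mRNA.

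Axon guidance proteins steer growing axons during development, and many stay on in the adult brain, where they act at synapses. Ephrins are membrane-bound ligands that signal through Eph receptor tyrosine kinases, semaphorins signal mostly through plexins with neuropilins as co-receptors for the secreted class 3 members, Slits repel axons through Robo receptors, and netrin-1 attracts axons through Dcc and repels them through Unc5 receptors. The m6A mark is placed by the METTL3 and METTL14 methyltransferase, mostly in long exons and around the stop codon of mRNAs, at a short motif whose most common core is GGAC with the methylated A in it.

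The sequences under the strongest peaks show what was recovered. Member regions called in all 24 animals, 98 in all, were ranked by fold enrichment relative to the animal's own list. The regions of Dcc and Sema6a were left out of the ranking. The 10 genes ranked first were Sema3a, Sema3g, Sema3c, Sema5b, Sema3d, Unc5c, Slit3, Sema3f, Sema4c and Sema5a, so 8 of 10 were semaphorins. Of all 98 regions 28 lay on semaphorins, and the difference was not tested. Fold enrichment is the ratio of IP over input that MACS2 gives at the summit. It was 14.2 for Sema3a (median of 24 animals, range 5.77 to 27.3), 13 for Sema3g (3.72 to 27.2), 11.2 for Sema3c (6.58 to 16.6) and 10.9 for Sema3d (4.46 to 23.4), all in the coding sequence (CDS). The bases around the GGAC nearest the summit are given for these and for the 3'UTR sites of Sema3f and Sema4c, on the transcribed strand of mm9, with the motif in capitals:
Sema3a CDS, chr5:13599443-13599502: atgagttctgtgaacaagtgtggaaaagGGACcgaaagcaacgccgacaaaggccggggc
Sema3g CDS, chr14:32041145-32041204: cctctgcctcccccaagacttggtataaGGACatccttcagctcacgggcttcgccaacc
Sema3c CDS, chr5:17233363-17233422: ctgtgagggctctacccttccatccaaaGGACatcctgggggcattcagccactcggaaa
Sema3d CDS, chr5:12585121-12585180: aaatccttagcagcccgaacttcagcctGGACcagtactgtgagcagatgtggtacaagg
Sema3f 3'UTR, chr9:107584394-107584423 (minus strand): cttgtcagggcatGGACcgcatgcctttgc
Sema4c 3'UTR, chr1:36606179-36606208 (minus strand): gtgtggctcaccaGGACttcagcctcacag

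In Sema3c the motif lay at the summit itself and in Sema4c 1 base from it, while in Sema3g it lay 63 bases before it and in Sema3f 90 bases after it. The other 4 of the 10 regions ranked first were intronic and held 0 GGAC within 150 bases of the summit on the transcribed strand. Their 61 bases at the summit, shown because they look unlike the exonic sites, were almost only A and G:
Sema5b intron, chr16:35644011-35644071: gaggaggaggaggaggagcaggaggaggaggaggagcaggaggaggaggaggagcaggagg
Unc5c intron, chr3:141319666-141319726: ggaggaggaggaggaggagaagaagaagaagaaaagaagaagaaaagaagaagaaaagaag
Slit3 intron, chr11:34962134-34962194: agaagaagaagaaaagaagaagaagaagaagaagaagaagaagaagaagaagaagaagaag
Sema5a intron, chr15:32514981-32515041: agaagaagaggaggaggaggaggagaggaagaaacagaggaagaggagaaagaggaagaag

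Most of these genes carried m6A-IP peaks in every animal. Of the 68 genes, 55 (80.9%) had a peak summit in the gene body in 24 of 24 animals, 11 in some animals and 2 in none, beside 7677 of 22238 protein-coding genes (34.5%) with a peak in all 24. The number of member genes with a peak was 62 in the median animal and lay between 59 and 65, with a standard deviation of 1.43. All 3 Slits, both neuropilins and netrin-1 had a peak in every animal, as had 19 of 20 semaphorins, 8 of 9 plexins, 10 of 14 Eph receptors, 6 of 8 ephrins, 3 of 4 Robos and 3 of 5 netrin receptors. The genes with no peak at all were Epha1, an Eph receptor, and Unc5cl. Efna4, an ephrin, had a peak in 1 animal, a trained KI mouse of 5 months. Epha2 and Unc50 each had a peak in 6 animals and Unc5a in 9, whereas Epha8 was found in 19, Robo3 in 21, Ephb4 and Efna5 in 22, and Sema3b, Unc5b and Plxnc1 in 23. No peak in an animal says only that none was called there.

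**Figure D1:**
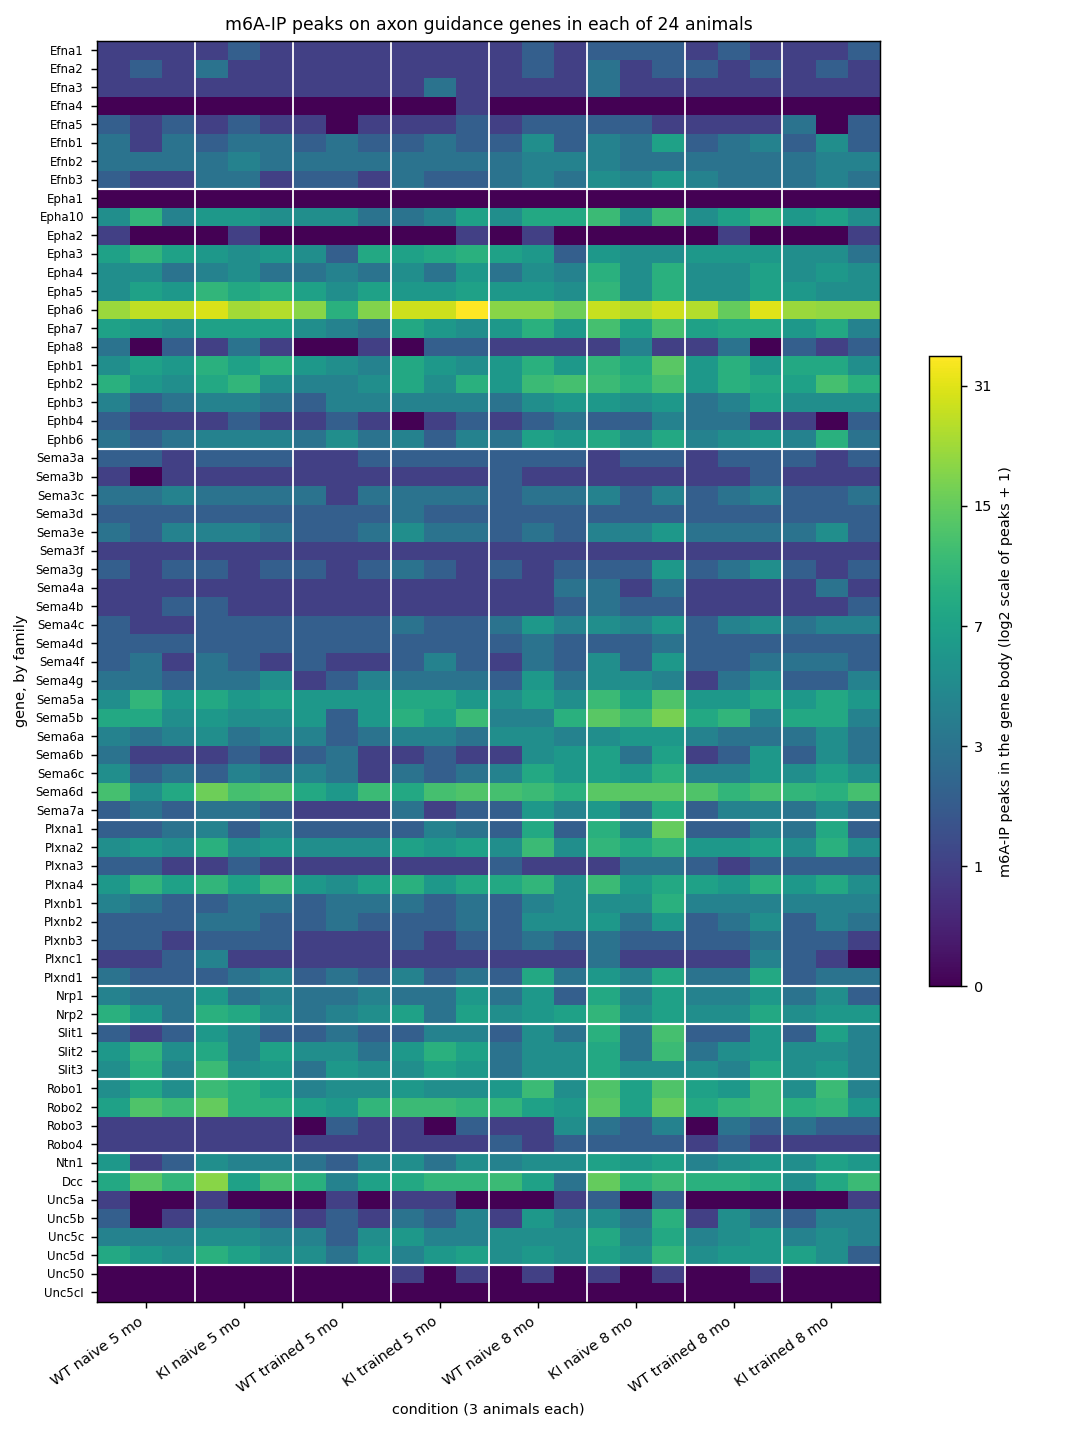
Number of m6A-IP peaks with their summit in the body of each of the 68 genes (rows, grouped by family) in each of 24 animals (columns, 3 per condition); colour is on a log2 scale of peaks plus 1. Epha6 stands out in every animal with 9 to 37 peaks, and Epha1 and Unc5cl have none.

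The genes with most regions were the long receptors. Epha6, an Eph receptor of 952 kb, held 59 regions, 50 of them intronic, then Dcc, the attractive netrin receptor of 1090 kb, with 28, Robo1 and Robo2 with 26 each, and Sema6d with 25. For Epha6 the peaks per animal were 21, 26 and 26 in naive WT, 30, 22 and 24 in naive KI, 19, 9 and 18 in trained WT and 28, 28 and 37 in trained KI mice of 5 months. At 8 months they were 19, 19 and 16 in naive WT, 27, 24 and 28 in naive KI, 24, 15 and 31 in trained WT and 21, 20 and 20 in trained KI mice. KI and WT animals did not overlap in trained mice of 5 months and in naive mice of 8 months, and overlapped in the other pairs. The peaks of Dcc ranged from 3 to 19 per animal with a median of 9, those of Robo2 from 6 to 15 with a median of 10, those of Robo1 from 4 to 13 with a median of 6 and those of Sema6d from 5 to 16 with a median of 12. The totals over all genes did not overlap either in trained mice of 5 months (22601 to 27906 peaks in WT and 32076 to 37964 in KI). In naive mice of 8 months they were 29783 to 41483 in WT and 37948 to 57293 in KI. The part of the peak totals in these counts was not tested, and neither were differences between groups.

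Over the transcript, 335 of the 685 regions (48.9%) lay in introns, 238 (34.7%) in the CDS, 70 (10.2%) in the 3'UTR and 42 (6.13%) in the 5'UTR. Over all protein-coding genes these shares were 40.1%, 39.4%, 14.6% and 5.93%. The intronic and CDS regions were mostly seen in few animals, with a median of 3 of 24 for both, beside 3 and 5 over all genes. In the 3'UTR 38 of 70 regions (54.3%) were called in all 24, beside 36.3% over all genes. Of the 98 member regions called in all animals, 38 lay in the 3'UTR, 34 in the CDS, 19 in introns and 7 in the 5'UTR, and they came from 54 genes, led by Epha6 with 5 and Sema6d and Sema5a with 4 each. Among the 79 exonic ones, 73 (92.4%) lay in exons over 400 bp, 51 (64.6%) in the last exon and 35 (44.3%) within 300 nt of the stop codon. The same shares over all genes were 95.0%, 66.8% and 42.3%.

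Along the mature transcript the exonic regions called in 12 or more animals (137 on members and 15448 in all) were spread unevenly. The first 20% of the CDS held 25 of the 137 (18.2%), against 10.6% over all genes. The middle of the CDS held 21 (15.3%) against 35.3%, its last 10% held 15 (10.9%) against 11.2%, the 5'UTR 27 (19.7%) against 9.24% and the 3'UTR 49 (35.8%) against 33.7%. These shares are a description, and the difference was not tested. The 25 early coding regions came from 24 genes, among them 10 Eph receptors and 8 plexins, and Nrp2 had 2 of them. Besides receptors the list held netrin-1 and the ephrin Efnb2. In the plexins Plxna1, Plxna2 and Plxna4 this was an exon of 1260, 1262 and 1270 bp, and in Epha3, Epha5 and Epha8 one of 661, 664 and 664 bp.

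**Figure D2:**
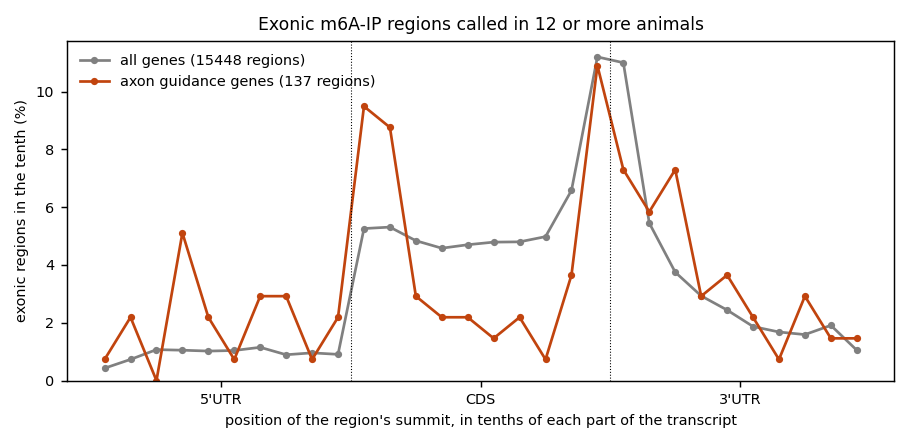
Share of exonic regions called in 12 or more animals in each 10% of the length of the 5'UTR, CDS and 3'UTR, for 137 regions on axon guidance genes (red) and 15448 regions on all genes (grey). Both lines peak at the end of the CDS, and the red line has a further rise over the first 20% of the CDS, where 18.2% of member regions lie.

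The intronic regions differed in base content from the exonic ones. In the window from 50 bases before to 50 after the summit, on the transcribed strand, A and G made up at least 90% in 41 of 335 intronic regions (12.2%) and in 0 of 238 CDS regions. Among the 19 intronic regions called in all 24 animals it was 10 (52.6%), on Slit3, Sema5a, Sema5b, Epha6, Dcc, Sema6d, Unc5c and Ephb2, and the same content of C and T was found in 0. Over all genes 283 of 1480 such intronic regions (19.1%) were that rich in A and G and 16 (1.08%) that rich in C and T, a difference from the members that was not tested. GGAC stood in the same windows in 45 of the 98 member regions called in all animals (45.9%) and in 67 of the 204 called in 1 animal (32.8%), beside 49.4% and 33.6% over all genes. It was present in 128 of 238 CDS windows (53.8%), 27 of 70 of the 3'UTR (38.6%) and 74 of 335 intronic ones (22.1%), where all genes had 43.4%, 45.4% and 28.8%. GGAC on the opposite strand, read as GTCC, stood in 22 of the 98 windows (22.4%).

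**Figure D3:**
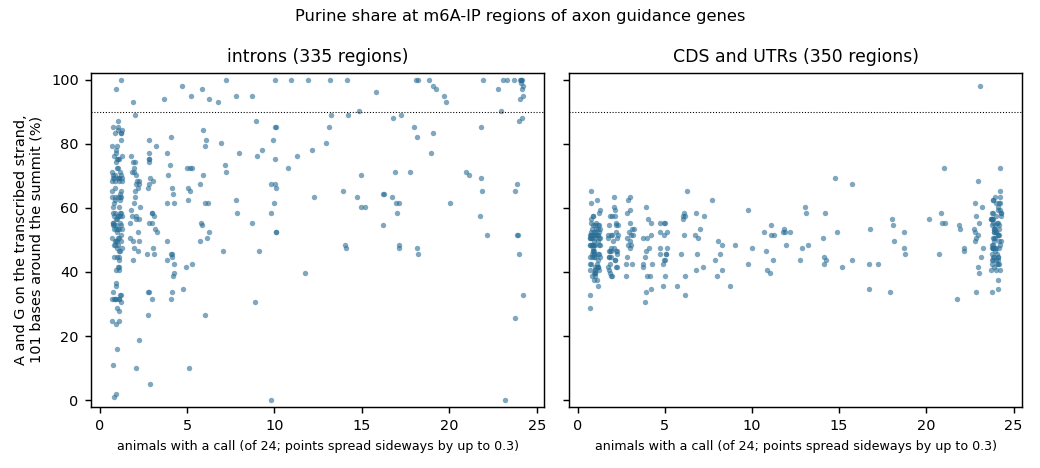
Percent of A and G from 50 bases before to 50 after the summit of each member region, on the transcribed strand, against the number of animals with a call, for introns (left) and for CDS and UTRs (right); the dotted line marks 90%. Many intronic regions called in most animals sit at or near 100%, and exonic regions lie lower, but for 1 region in the 3'UTR of Epha5 at 98.0%.

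Some facts of the whole series bear on the comparisons. The lists held 22601 to 57293 peaks per animal, and naive KI mice of 8 months had 2 of the largest, 51735 and 57293, with narrow peaks (median width 172 and 197 bp, against 202 to 485 bp in the other 22). The members' share of all peaks was nearly the same in every animal, 0.698% to 0.796%. In all 4 tables of KI against WT the authors list a peak of Htt as higher in KI, by 4.74 to 6.49 on the log2 scale, and the 4 tables of trained against naive mice of 1 genotype list Fos, an immediate-early gene, as higher after training, by 0.97 to 1.76. The table of both genotypes at 5 months lists that Htt peak as 5.55 higher in trained mice although both of its groups hold KI and WT animals, so that row goes against its label. The same table lists Fos at 2.26 and Arc, another immediate-early gene, at 1.16, both higher in trained mice as labelled. Its member peaks are only counted, under the dependence on thresholds, and are not described. Of 8 marker genes of hippocampal principal neurons 6 to 8 had a peak in each animal, of 9 oligodendrocyte markers 6 to 9, and of 7 markers each of astrocytes 5 to 7, of endothelium 5 to 7 and of microglia 4 to 7. Of 10 choroid plexus markers 1 to 8 had one, with 5 to 8 in naive KI and 1 to 7 in naive WT mice at 5 months, 2 to 7 in the other conditions, and with Ttr and Aqp1 at 0 in all animals. Their part in the results was not tested.

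To ask where KI and WT or trained and naive mice differ, the authors' deposited tables were read first. They give for each peak the mean normalised read level of each group on the log2 scale, the log2 fold change and an adjusted p from DiffBind with DESeq2. A peak is called differential where the adjusted p is below 0.05 and the log2 fold change exceeds 1 in size. Over the 8 tables of 2 groups, 40 such peaks carried a member's symbol, on 20 genes, and 31 of the 40 were intronic by the peak's centre, 5 in the CDS, 2 in the 3'UTR, 1 in the 5'UTR and 1 outside the annotated body. By region, 23 of 31 member regions under a differential peak (74.2%) were intronic, beside 1608 of 2880 over all genes (55.8%), a difference that was not tested. A and G made up at least 90% of the window in 2 of the 31 (6.45%), beside 7.67% over all genes, and in introns in 8.7% beside 13.7%. Those counts are set beside all regions that 2 or 3 of the animals of one group had called, which are called reproducible. Counts by region differ a little from those by symbol, since the tables list Epha10 intronic peaks under another symbol and 1 Unc5d peak lies outside the annotated gene body.

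In KI against WT mice the member regions under a differential peak were mostly higher in KI. In naive mice of 5 months 3 of 255 reproducible member regions were under a higher peak and 0 under a lower one, where the background was 0.723% and 0.401%. In naive mice of 8 months it was 6 and 0 of 323, with a background of 0.89% and 0.233%. In trained mice of 5 months it was 5 and 1 of 242, with a background of 0.791% and 0.489%, and in trained mice of 8 months 3 and 3 of 254, with 0.432% and 1.06%. The tables' listed peaks of members, which all have an unadjusted p of up to 0.05, were higher in KI in 27 of 53, 48 of 64, 59 of 76 and 50 of 73, where 32.7%, 63.8%, 78.7% and 58.5% of all listed peaks were. By region, the shares under a higher peak were 1.18%, 1.86%, 2.07% and 1.18% of the member regions in the same order. Each rests on 3 to 6 regions, and the distance from the background was not tested.

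In trained against naive mice the few member regions under a differential peak were mostly under a lower one, except in WT mice of 8 months. In WT mice of 5 months 0 of 224 were higher and 5 lower, with a background of 0.348% and 1.31%. In KI mice of 5 months 1 was higher and 7 lower (0.369% and 2.58% of the member regions), with 0.401% and 1.93%. In WT mice of 8 months 2 of 253 were higher and 2 lower, with 1.24% and 0.589%, and in KI mice of 8 months 0 of 329 were higher and 3 lower, with 0.367% and 0.78%. Listed peaks of members were higher after training in 7 of 63, 36 of 76, 22 of 63 and 19 of 62, where 15.9%, 50.4%, 49.6% and 45.3% of all listed peaks were. Comparisons that share a condition share its 3 animals, so the same animals stand behind several of these counts.

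Among the netrins, Ntn1, the secreted netrin-1, had 2 peaks higher in naive KI than WT mice of 5 months. At the 5'UTR peak (chr11:68200215-68200557) the fold enrichment was 12, 13 and 3.99 in KI and 3.4, no peak and 3.9 in WT mice. All 3 KI values were above both WT values, in a peak that was picked because it is listed as differential between these animals. The table lists mean levels of 7.65 and 5.98, a log2 fold change of 1.67 and an adjusted p of 0.000313. The CDS peak beside it (chr11:68199049-68199712) had 5.71, 4.37 and 4.78 in KI and a call in 1 of 3 WT mice, at 6.03, with a listed log2 fold change of 1.01 and an adjusted p of 0.00742. Outside this pair of conditions both peaks were called in 2 or 3 animals of every condition, KI and WT alike.

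Unc5d, a repulsive netrin receptor, had peaks that went both ways. Its 3'UTR peak (chr8:29759116-29759557) in trained mice of 5 months was at 4.77, 4.66 and 4.54 in KI and had no call in 3 of 3 WT mice, with a listed log2 fold change of 1.59 and an adjusted p of 0.000374. In naive mice of 5 months the same stretch was called in 2 WT and 1 KI animals. An intronic peak (chr8:30134814-30135243) is listed as lower in the same comparison by a log2 fold change of -2.61, adjusted p of 5.75e-08, although 2 of 3 animals had a call in each group. In WT mice of 8 months another intronic peak was listed at 1.09 after training and one outside the annotated body at -1.18. A Dcc intronic peak, in turn, is listed at -1.40 after training in KI mice of 5 months with an adjusted p of 0.0135, where 2 of 3 animals of each group had a call. Its summit window was 95.0% A and G.

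Among the Slits, Slit2, a secreted repellent, had an intronic peak (chr5:48544387-48544837) that appears in 3 comparisons. Its fold enrichment was 8.8, 11.8 and 10.1 in WT mice left naive at 5 months, against 5.79 in 1 of 3 trained WT mice, the others without a call. In trained KI mice of 5 months it was 5.98, 13.4 and 8.55. In WT mice of 8 months it ran the other way, with a call in 1 naive animal at 6.81 and 11, 14.1 and 5.4 in the trained ones. The tables list log2 fold changes of -1.26 for training in WT at 5 months (adjusted p of 0.00102), 1.09 for KI against WT in trained mice of 5 months (0.00747) and 1.53 for training in WT at 8 months (5.48e-06). The change with training thus had opposite signs at the 2 ages in WT mice, and that difference was not tested.

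A second Slit2 intronic peak (chr5:48495361-48495683), whose summit window held A and G alone, is listed at -1.17 for training in WT mice of 5 months, with an adjusted p of 0.0172. In trained mice of 8 months it is listed as lower in KI by -1.04, yet it was called in 3 of 3 KI mice at 6.1, 4.26 and 7.15 and in 2 of 3 WT mice at 3.45 and 3.23. There the calls and the listed level went opposite ways. An intronic peak of Slit3 (chr11:35002012-35002328) was called at 2.22, 7.35 and 2.46 in the 3 naive KI mice of 8 months but in 0 of 3 WT ones, with listed levels of 6.36 and 2.28 and a log2 fold change of 4.07 (adjusted p of 3.88e-08). At 5 months the same stretch had a call in 2 of 3 animals of each of the 4 conditions, and it is listed at -1.32 for training in KI mice with an adjusted p of 0.0125.

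Robo1, a Slit receptor, had a CDS peak (chr16:73004539-73004919) listed at -2.41 for training in WT mice of 8 months, with an adjusted p of 0.0255. It was called in 3 of 3 trained mice at 2.26, 2.14 and 2.29 and in 2 of 3 naive mice at 3.03 and 4.89. The naive values were higher, but the call was the more frequent in trained mice. In KI mice of 8 months the region was called in 3 of 3 naive and 0 of 3 trained animals. A further peak (chr16:74095218-74095611) is listed under both Robo1 and Robo2 at -1.05 for training in KI mice of 5 months and lies in an intron of Robo2. It was called at 4.01, 4.49 and 2.69 in naive and at 2.95 in 1 of 3 trained animals.

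Among the Eph receptors, Epha6 had 4 intronic regions under differential peaks. The one at chr16:60592116-60592625 was called at 7.18, 2.85 and 2.09 in WT mice left naive at 5 months, against 2.33 in 1 of 3 trained WT mice. In trained KI mice of the same age it was 2.38, 2.95 and 6.01. The tables list it at -1.47 for training in WT (adjusted p of 0.000465) and at 1.52 for KI against WT in trained mice (0.000434). Both rest on the same 3 trained WT animals, the group with the fewest peaks. A region at chr16:60335450-60335770 is listed at -1.37 for training in WT and at -1.11 in KI mice of 5 months. It was called in all 12 animals of 5 months, at 3.37, 3.76 and 4.87 in naive and 3.76, 7.54 and 3.09 in trained WT mice, so the fold enrichment of the WT groups overlapped. The region at chr16:60470453-60471350 was the one Eph peak listed as higher after training, at 1.03 in KI mice of 5 months, with calls in 3 of 3 trained and 1 of 3 naive animals. The remaining one (chr16:60128832-60129305) is listed at -1.02 for training in WT mice of 5 months.

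Epha3 and Ephb1 had 1 differential peak each, both lower after training in KI mice of 5 months. For Epha3 (chr16:63832725-63834450) the fold enrichment was 10.9, 14.4 and 7.68 in naive and 5.71, 3.66 and 6.54 in trained KI mice. The 2 groups did not overlap, in a peak that was picked because it is listed as differential between these same animals. The listed log2 fold change was -1.12 with an adjusted p of 3.19e-08, and the summit window held C and T alone on the transcribed strand. For Ephb1 (chr9:102008733-102009079) the values were 8.09, 5.36 and 6.98 in naive mice and 3.75, 5.97 and no call in trained mice, with -1.06 and 0.0145. Ephrins had no differential peak in any of the 8 tables.

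Among the semaphorins, the peaks in naive mice of 8 months were all higher in KI. Sema3e, a secreted semaphorin that binds Plxnd1 directly, had a CDS peak (chr5:14143766-14144008) with a fold enrichment of 4.78, 3.0 and 4.34 in KI and no call in 3 of 3 WT mice. The listed levels were 5.08 and -0.13 and the log2 fold change 5.21 (adjusted p of 9.05e-06). The WT level is near the lowest that the table holds, -0.33, so this fold change has no meaning as a size. Sema5b, a transmembrane semaphorin, had an intronic peak (chr16:35587047-35587207) at 6.14, 3.78 and 6.17 in naive KI mice of 8 months and no call in any of the other 21 animals. It is listed at 2.18 against naive WT (0.0122) and at -2.02 for training in KI (0.042), with the same 3 naive KI animals in both. Sema6a had a peak called in 3 of 3 KI and 1 of 3 WT mice and listed at 1.46 (0.00287).

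In the other comparisons Sema5a, Sema5b, Sema3c and Sema6c were listed. Sema5a had an intronic peak (chr15:32287027-32287860) at 5.71, 4.16 and 7.59 in naive KI and 4.37, 3.44 and no call in naive WT mice of 5 months, with 1.33 and an adjusted p of 0.000927. The groups overlapped in part, since 1 KI value lay below the higher WT value. In trained mice of 5 months a further Sema5b intronic peak was listed at 1.09 and one of Sema3c at 1.01, both higher in KI. Sema6c, a transmembrane semaphorin, had 2 intronic peaks higher in trained KI than WT mice of 8 months. At chr3:94974947-94975475 the values were 4.3, 6.31 and 4.17 in KI and 3.5 in 1 of 3 WT mice, listed at 1.34 (7.41e-05), and the peak at chr3:94970867-94971597 is listed at 1.26. The latter is listed at -1.08 for training in WT mice of 8 months, a comparison that shares the trained WT animals.

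Among the semaphorin receptors, Plxnd1 had a CDS peak (chr6:115930633-115930884) at 4.83, 3.42 and 5.63 in naive KI mice of 8 months. It was called in 1 of 3 naive WT mice, at 5.88, and in 0 of 3 trained KI mice. It is listed at 2.00 for KI against WT (0.000104) and at -1.81 for training in KI (0.0316). Plxna4 had an intronic peak (chr6:32129001-32129235) with no call in 3 of 3 trained KI mice of 8 months and calls at 2.46, 3.29 and 7.54 in trained WT and at 2.31, 5.21 and 6.39 in naive KI mice, listed at -1.12 (0.0343) and -1.56 (0.00329). Of the other 21 animals 17 had a call. Nrp2, a neuropilin, had a 3'UTR peak (chr1:62863494-62863989) at 3.38, 3.04 and 4.58 in trained WT mice of 8 months and 2.76 in 1 of 3 trained KI mice, listed at -1.39 with an adjusted p of 2.58e-12. Naive WT mice of that age had no call there and naive KI mice had 2. Nrp1 had an intronic peak listed at -1.03 for training in KI mice of 5 months.

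**Figure D4:**
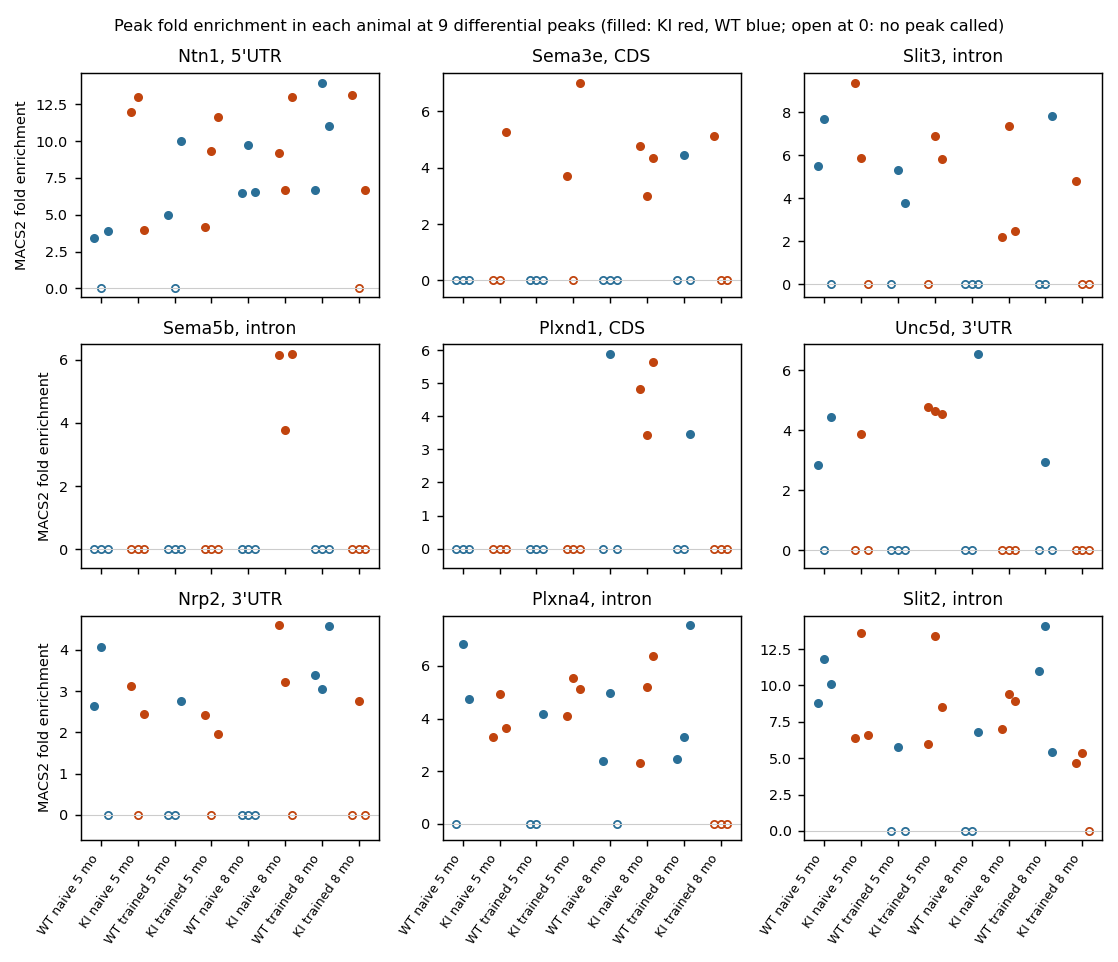
MACS2 fold enrichment in each animal at 9 member peaks that the deposited tables list as differential, by condition (KI red, WT blue, 3 animals each); open circles at 0 mark animals with no called peak. The Sema5b peak is called in the 3 naive KI mice of 8 months and nowhere else, while the Ntn1, Slit2 and Plxna4 peaks are called in most conditions.

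The calls can also be compared without the tables, by regions called in 3 of 3 animals of one group and 0 of 3 of the other. In KI against WT mice 1 of 255 member regions was called in KI only and 0 in WT only in naive mice of 5 months (background 1.16% and 0.196%). At 8 months naive mice had 9 and 0 of 323 (1.82% and 0.0606%). Trained mice had 5 and 0 of 242 at 5 months (2.77% and 0.0418%) and 1 and 2 of 254 at 8 months (0.193% and 0.921%). The 9 in naive mice of 8 months lay on Sema4c, Plxna2, Slit3, Sema5b, Epha6, Dcc, Epha10, Sema3e and Plxnb1, and 2 of those KI animals had the largest peak lists. When each animal was cut to its 22601 best peaks by p, an alternative chosen after seeing the data, the 9 and 0 became 1 and 2 of 171 (background 0.598% and 0.843%). The 5 and 0 in trained mice of 5 months became 1 and 2 of 176 (0.681% and 0.345%). The 1 and 0 in naive mice of 5 months became 0 and 0 of 185 (0.643% and 0.462%). The 1 and 2 in trained mice of 8 months were again 1 and 2, of 170 (0.704% and 0.625%). Without the cut, the share of member regions called in KI only was 0.392% and 2.79% in naive mice of 5 and 8 months. In trained mice of these ages it was 2.07% and 0.394%. With equal numbers no pair had more member regions called in KI only than in WT only. The part of the list sizes in these counts was not tested.

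With training, 0 of 224 regions were called in trained WT mice of 5 months only and 0 in naive ones only (0.0765% and 1.68%). In KI mice of 5 months it was 0 and 2 (0.485% and 0.594%), in WT mice of 8 months 2 and 0 of 253 (0.879% and 0.281%), on Nrp2 and Robo2, and in KI mice of 8 months 0 and 9 of 329 (0.0635% and 2.37%). The last 9 lay on Sema4c, Sema5b, Robo1, Sema6a, Plxna4, Plxnd1, Robo4, Ephb1 and Plxnb1. They share the naive KI animals with the 9 above. With the 22601 best peaks of each animal the counts became 2 and 2 of 170 (background 0.91% and 0.684%). By the same setting the counts in mice of 5 months were 2 and 1 of 179 in WT (0.464% and 0.651%) and 2 and 2 of 180 in KI (0.538% and 0.442%). In WT mice of 8 months they were 1 and 0 of 167 (0.603% and 0.563%).

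Over all 24 animals, a Fisher's exact test of called against not called animals, 12 against 12, was run for genotype, training and age. Of the 685 member regions 279 were called in 3 to 21 animals and could be tested, among 35110 regions in all. None of the 279 passed an adjusted p of 0.05 for genotype, training or age (background 0.00285%, 0.0% and 0.0%). At an unadjusted p below 0.05 there were 6 member regions for genotype (2.15%, background 1.79%), all 6 called more often in KI (background 1.72%), 4 for training (1.43%, background 1.44%), 1 of them called more often in trained mice (background 0.128%), and 34 for age (12.2%, background 9.8%), of which 29 were called more often at 8 months (10.4%, background 8.86%). Shares of members were thus near those of all regions for each factor. Leaving out 1 animal at a time gave 6 to 13 member regions for genotype (all regions 2.42% to 3.73%) and 4 to 12 for training (1.97% to 3.22%), both highest without trained WT replicate 3 of 8 months. With the 22601 best peaks of each animal there were 2 for genotype (1.13%, background 1.05%) and 3 for training (1.69%, background 1.11%).

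For genotype the smallest p belonged to an Epha6 intronic region (chr16:60494458-60494876), with a call in 12 KI and 5 WT mice of 12 each (2-sided exact p = 0.00458, adjusted p = 1.0). Its fold enrichment was 3.99 to 8.64 in KI animals and 2.92 to 8.8 in the WT animals with a call. An Epha7 intronic region (chr4:28740843-28741952) was called in 11 and 5 (exact p = 0.0272), and the Sema3e CDS region named above in 7 and 1 (exact p = 0.0272). With the 22601 best peaks of each animal these became 8 and 2, 4 and 2, and 3 and 1. For training the leading regions were in the 3'UTR of Plxna4 (chr6:32094454-32095028), called in 5 trained and 11 naive animals (exact p = 0.0272), and in introns of Epha6, with 5 and 0 at one (chr16:59702854-59703080) and 0 and 5 at another (chr16:59839116-59839668), both at an exact p of 0.0373. All had an adjusted p of 1.0.

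With age the CDS of semaphorins came first. A Sema4c CDS region (chr1:36609599-36610156) was called in 11 of 12 animals of 8 months, at 2.68 to 6.75, and in 1 of 12 of 5 months, at 2.91. Its exact p was 0.000107 and the adjusted p 0.188. A Sema7a CDS region (chr9:57808216-57808703), from a membrane-anchored semaphorin, was also called in 11, at 2.31 to 4.86, and in 1, at 1.98, with the same p. A further Sema4c CDS region (chr1:36608602-36609406) was called in 8 and 0 (exact p = 0.00135, adjusted p = 0.232). Of the 29 member regions called more often at 8 months 23 (79.3%) lay in the CDS, against 64.4% of all such regions. The 5 called more often at 5 months were intronic, on Unc5d, Robo2, Nrp1, Epha5 and Sema5b, as were 239 of all 329 such regions (72.6%). The CDS share of member peaks per animal was 24.8 ± 4.29% at 5 months and 33.8 ± 6.59% at 8 months (mean ± SD, n = 12), beside 38.1 ± 3.36% and 42.7 ± 4.26% over all genes.

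Age moved with the size of the peak lists, which held 22601 to 40799 peaks at 5 months and 29783 to 57293 at 8 months. With the 22601 best peaks of each animal 10 member regions (5.65%, background 6.07%) were below the unadjusted p of 0.05 instead of 34, 5 in each direction, and the 3 regions above were called in 4, 5 and 3 animals of 8 months and in 0 of 5 months. Without the 2 naive KI libraries with most peaks, left out after seeing the data, there were 30 of 234 (background 9.12%), of which 20 were called more often at 8 months. Leaving out 1 animal at a time gave 36 to 61 (all regions 11.3% to 16.5%), the highest without naive WT replicate 1 of 8 months, and 1 member region passed the adjusted p in 3 of these 24 runs, in which 7, 9 and 47 of all regions passed. It was the Sema7a region without naive KI replicate 2 of 5 months (adjusted p = 0.0473) and without naive WT replicate 1 of 8 months (0.0371), and the Sema4c region without trained WT replicate 1 of 8 months (0.0371).

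**Figure D5:**
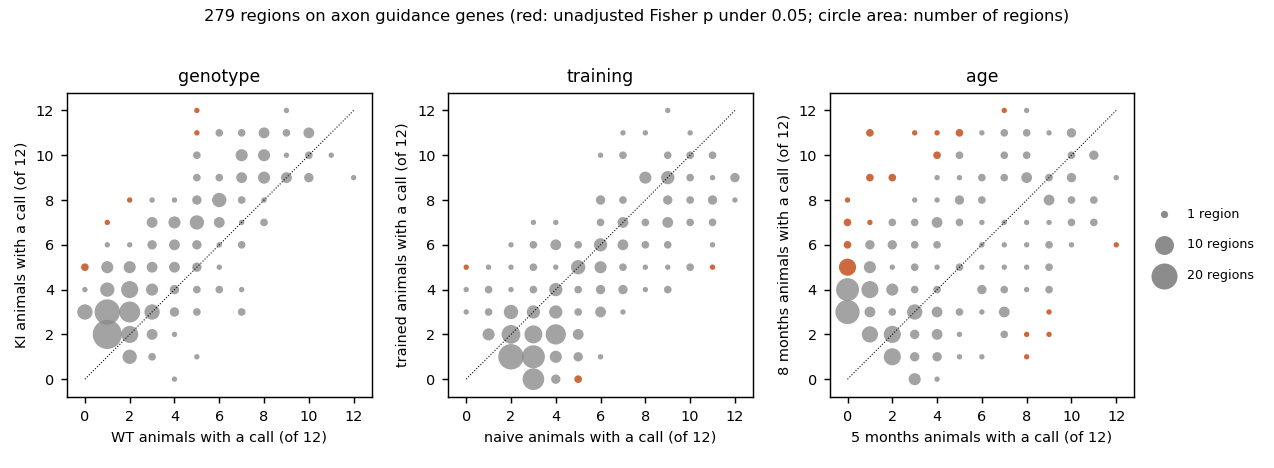
Animals with a call in the 279 tested member regions, KI against WT, trained against naive and 8 against 5 months, 12 animals per axis; circle area is the number of regions and red marks an unadjusted Fisher p under 0.05. For age, 29 red regions lie above the dotted line of equal counts and 5 below it, and none of the regions passes after adjustment.

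The 98 member regions called in all 24 animals allow the strength of the peak to be compared, as log2 fold enrichment centred on each animal's median and fitted with limma over 12187 such regions. None of the 98 passed an adjusted p of 0.05 in any of 11 contrasts. The background was 0.0% in KI against WT in naive mice of 5 and 8 months and in trained mice of 5 and 8 months, 0.0% for training in WT mice of 5 and 8 months and KI mice of 5 months, 0.0164% for training in KI mice of 8 months, 0.0% for genotype over all animals, 0.00821% for training and 0.0% for age. At an unadjusted p below 0.05 the members numbered 5 (background 3.58%) in naive mice of 5 months, 5 (5.38%) in naive mice of 8 months, 4 (3.62%) in trained mice of 5 months and 8 (4.6%) in trained mice of 8 months for KI against WT. For training they numbered 3 in WT (3.22%) and 3 in KI (3.32%) at 5 months, and 3 in WT (3.88%) and 6 in KI (5.98%) at 8 months. Over all animals they were 3 for genotype (4.21%), 3 for training (3.85%) and 9 for age (7.93%). The standard error of a member's log2 difference had a median of 0.316 with 3 against 3 animals and of 0.161 with 12 against 12.

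The regions with the smallest p in these contrasts show the spread. At the 3'UTR of Ephb3 (chr16:21222434-21223357) the fold enrichment was 8.17, 10.5 and 10.5 in naive and 3.64, 4.21 and 3.89 in trained KI mice of 8 months. The groups did not overlap, and the log2 difference was -1.31 ± 0.351 (SE), with a limma adjusted p of 0.686. At the CDS of Ntn1 (chr11:68026120-68026996) it was 10.6, 9.82 and 6.71 in naive and 3.96, 2.97 and 5.32 in trained WT mice of 5 months, a difference of -1.07 ± 0.318 with a limma adjusted p of 1.0. At the 5'UTR of Nrp2 (chr1:62749778-62750834) it was 7.44, 4.64 and 6.19 in trained WT, 4.05, 2.43 and 2.9 in trained KI and 3.69, 3.14 and 3.27 in naive WT mice of 8 months. That gave -0.98 ± 0.304 for KI against WT and 0.82 ± 0.304 for training, which share the trained WT animals, with limma adjusted p of 0.998 and 1.0. In both pairs the groups did not overlap. The regions of this paragraph were picked for their small p, so the separation of their groups follows in part from that choice.

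In the remaining contrasts the leading members were Epha6 (3'UTR, 0.66 ± 0.246, KI against WT in naive mice of 5 months), Efna1 (3'UTR, 0.67 ± 0.275, naive mice of 8 months), Plxna1 (CDS, -0.63 ± 0.246, trained mice of 5 months) and Unc5c (3'UTR, 0.76 ± 0.294, training in KI mice of 5 months), with limma adjusted p of 0.9 to 1.0. Efna1, an ephrin, also led for genotype over all animals, with 0.38 ± 0.135 and an adjusted p of 0.996. Its values were 7.71 to 11.4 in naive KI mice of 5 months and 10.6 to 13.2 at 8 months, against 4.93 to 7.85 and 5.16 to 9.62 in WT. The naive genotypes thus overlapped at 5 months and not at 8 months. In trained mice they overlapped at both ages, with 7.72 to 10.8 in KI and 5.54 to 8.38 in WT at 5 months and 6.22 to 10.6 and 5.85 to 8.16 at 8 months. Epha10 led for training over all animals (-0.47 ± 0.147, adjusted p of 1.0). For age it was the intronic region of Slit3 shown above, lower at 8 months by -0.69 ± 0.195 with an adjusted p of 0.314.

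Other genes of the pathway were read from a list of 60, mostly co-receptors and the proteins that carry the signal to the cytoskeleton, such as Srgap, Ablim, Mical and Tiam genes. Of the 59 in the annotation 40 had a peak in all 24 animals and 3 (Dpysl4, Rhoa and Cdc42) in none. Their reproducible regions under a differential peak numbered 0 higher and 0 lower of 158 in KI against WT naive mice of 5 months, 0 and 1 of 215 at 8 months, 1 and 3 of 148 in trained mice of 5 months and 1 and 3 of 168 at 8 months. With training they were 0 and 1 of 134 in WT and 0 and 7 of 169 in KI mice of 5 months, and 2 and 1 of 172 in WT and 0 and 3 in KI mice of 8 months. The background for these counts is that given above for the members, for example 1.93% lower with training in KI mice of 5 months. The largest listed changes were -8.60 for Enah, a regulator of actin, with training in KI mice of 5 months, 7.22 for Mical2 in KI against WT trained mice of 8 months, both with 1 group near the lowest level of its table so that the size means little, and -4.07 for Dscam with training in WT mice of 8 months. Tiam1, an exchange factor for Rac, had peaks listed at -2.15 and -1.20 for training in KI mice of 5 months. In KI mice of 8 months a Tiam1 peak that overlaps the first of these is listed at -3.65 for training. Srgap1, a GTPase-activating protein bound by Robo, had one at -1.84 for training in KI mice of 5 months. Rgma, a ligand of neogenin, had a peak listed at 1.74 in KI against WT trained mice of 5 months and one at -1.61 for training in WT, with the trained WT animals in both. None of their 56 regions called in all animals passed in the 11 limma contrasts.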

How the data were processed

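Hippocampal m6A-IP and input libraries came from 24 mice, 3 per condition, so replicates are separate animals. Per the labels and the study's methods, the authors aligned reads to mm9 with STAR 2.7.3a, kept unique reads and called peaks in each IP against its input with MACS2 2.2.6. The deposited peak lists give a score, the fold enrichment as a ratio of IP over input, and the −log10 p and q of each peak. The deposited lists hold no read totals, so no depth per library was computed. The 10 deposited tables from DiffBind 2.8.0 with DESeq2 hold mean log2 levels, log2 fold changes and p-values that the authors computed, only for peaks with p up to 0.05. These are their comparisons and are named as listed, and signs were turned to KI minus WT and trained minus naive.

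Peaks were joined over animals where they overlapped by at least 1 bp (bedtools 2.31.1) and placed on genes by their summit. Calls were compared by 2-sided Fisher's exact tests (scipy 1.17.1) in regions called in 3 to 21 animals. Log2 fold enrichment in regions called in all animals, centred on each animal's median, was fitted with limma 3.58.1 over the 8 conditions. P-values were adjusted by Benjamini-Hochberg over all regions, and both steps were tested on simulated data. Members, gene lists and tests were chosen with earlier results of these data known. Named genes were the 5 with most regions and those with a peak in 0 to 5 animals, up to 5 listed peaks per table by size of fold change, the 3 smallest Fisher p per factor and the smallest p per limma contrast. The other names, among them the peaks of Sema3c, Ephb1, Robo2 and Nrp1, were added after their values were seen. Alternatives were other thresholds, the −log10 q, equal numbers of peaks, joining by summits, other scaling and leaving out animals.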

Additional observations from a re-analysis of the deposited data

How the results depend on the processing

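No paired analysis was possible because each animal belongs to 1 condition and the replicate numbers only name animals. Differential member peaks in KI against WT numbered 3 and 5 in naive mice of 5 and 8 months and 6 and 5 in trained ones. For training they numbered 5 and 8 in WT and KI mice of 5 months and 5 and 3 at 8 months. With a log2 fold change beyond 2 these became 0, 3, 1, 0, 0, 0, 1 and 1 in the same order of conditions, and with no threshold on the fold change 20, 28, 43, 36, 28, 49, 40 and 31. With an adjusted p under 0.01 they became 3 in trained mice of 8 months, 3 and 4 for training in WT and KI mice of 5 months and 1 for training in KI mice of 8 months. In the tables of both genotypes the counts were 2 at 5 months and 0 at 8 months. At 5 months the count was 0 under either stricter threshold and 8 with none on the fold change. At 8 months it was 18 with no such threshold. By the label, 145 of all listed peaks were higher and 78 lower past the main thresholds at 5 months, and 184 and 128 at 8 months. Member counts under the changed thresholds were not set beside those of all listed peaks. Whether members differ there from all listed peaks was not tested. Region calls by age had 0 member regions past the adjusted p, and 0 to 1 when 1 animal was left out. The median number of member genes with a peak fell from 62 to 58 with the same number of best peaks. Of 461 alternatives run 422 stayed within 1.5 times or within the spread and 39 moved, of which 11 were counts of regions called in 3 of 3 against 0 of 3 with that same number of peaks, a setting chosen after seeing the data. The cause was not tested. Whether the number of peaks called limits members of low fold enrichment was not tested, and 3 against 3 animals cannot give an exact p below 0.1.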
